A study of Mus musculus with 14 samples.

Results

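Fatty acid synthesis, elongation and desaturation were followed through the mRNA of 10 genes in differentiating mouse oligodendrocyte precursor cells (OPCs). The genes were chosen by symbol and were Acly, Acaca, Fasn, Scd1, Scd2, Elovl1, Elovl5, Elovl6, Elovl7 and Fads1. All 10 were among the 23427 genes of the deposited table, and all 10 passed the filter on low values. OPCs were purified from the cortex of postnatal day 7 C57BL/6J pups by immunopanning, which captures cells on an antibody against the receptor Pdgfra, with the cortices of 3 pups dissected for a preparation. The 14 mRNA libraries fell into 7 groups of 2. One group was Day0, wild-type precursor cells before differentiation. The other 6 were taken at Day3. They comprised a non-treated group, a mock transfection without siRNA, and the non-targeting NC siRNA #1 and NC siRNA #2. The rest received an siRNA against Secisbp2l (siSbp2l) or one against Pdgfra (siPdgfra). In its differentiation series the study counts days from growth factor withdrawal and addition of the thyroid hormone T3. Its siRNA methods give an incubation after transfection and name no change of medium. All groups shared the strain and the wild-type genome, and each knockdown was a transient transfection. How many siRNA sequences were used per target in these libraries is not given in the sources used here. The labels name a serum-containing growth medium for all samples, while the study's methods describe a defined medium. The study's methods call the replicates independent cultures. The labels do not say whether they came from separate animals, so the p-values measure only the spread between these libraries.

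Fatty acids are built in the cytosol from acetyl-CoA. ATP citrate lyase (Acly) makes that acetyl-CoA from citrate, acetyl-CoA carboxylase alpha (Acaca) converts it to malonyl-CoA in the committed step, and fatty acid synthase (Fasn) assembles palmitate. Enzymes of the endoplasmic reticulum then modify the product: Elovl elongases lengthen the chain, and desaturases (Scd1, Scd2, Fads1) insert double bonds. Oligodendrocytes make large amounts of lipid for the myelin sheath, which is rich in very long chain fatty acids carried by galactolipids and sphingolipids.

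The main differences were as follows. Elovl7 mRNA was higher at Day3 than at Day0, by 4.29 on the log2 scale (19.6-fold) in non-treated and by 3.95 in mock cells. Against the Day3 controls it was 3.28-fold lower in siSbp2l and 3.58-fold lower in siPdgfra. Scd2 was about 2 times higher at Day3, and in both knockdowns it lay close to its Day0 level. Elovl1 fell in siSbp2l and not in siPdgfra. Elovl6 moved in opposite directions in the knockdowns. Acaca was higher in siSbp2l than in siPdgfra. Acly, Fasn, Scd1, Elovl5 and Fads1 differed from the controls by less than 1.5-fold in both knockdowns. Some of these, such as Elovl5 in siPdgfra, still lay outside the range of the control libraries.

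Levels are FPKM, that is, fragments per kilobase of exon scaled to the mapped fragments of the library, so that levels of different genes can be set side by side. Tests were made with limma on log2(FPKM + 1), and fold changes are on that scale. An adjusted p is a Benjamini-Hochberg value over all genes tested in a contrast, 11650 in the fit of the 12 Day3 libraries and 11874 in that of all 14. A gene is said to be called where the adjusted p was under 0.05 and the fold at least 2. "Rose" and "fell" are used for an adjusted p under 0.05 at any fold, with the size given.

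Depth, recovered from the steps between low FPKM values, ran from 6555959 fragments (NC siRNA #2 replicate 2) to 31565172 (Day0 replicate 1), and between 89.4% and 92.8% of low values came out as whole fragments, within 0.1 of a whole number. The fragments behind a single value of the 10 genes ran from 440 (Elovl1 in NC siRNA #2 replicate 2) to 145394 (Scd2 in mock replicate 2). The non-treated pair stood apart from the other pairs: the SD of its log2 difference between replicates was 0.457, against 0.148 to 0.1995 in the others. Secisbp2l was at 3.91 and 3.82 FPKM in siSbp2l and between 134.7 and 255.2 in the 8 control libraries of Day3. Pdgfra was at 3.30 and 2.69 FPKM in siPdgfra and between 32.4 and 72.1 in those controls, so both targeted mRNAs matched their labels. Pdgfra was also higher in siSbp2l, at 149.9 and 144.4 FPKM.

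The 4 elongases are shown by the 250 bases before their annotated start, because 3 of them fell in siSbp2l and 1 did not. RefSeq promoter sequences of GRCm38.p6 were given for 7 of the 10 genes, and for these the start site of the deposited mm10 annotation lay 0 bases from a start in the RefSeq table. Scd1, Scd2 and Fads1 were not among them. The genes themselves lie in mm10 at chr4:118428093-118432916 (Elovl1), chr9:77917365-77984519 (Elovl5), chr3:129532386-129638493 (Elovl6), chr13:108214404-108287107 (Elovl7), chr11:100476352-100528000 (Acly), chr11:84195438-84401651 (Acaca), chr11:120805958-120824547 (Fasn) and chr19:10182888-10196872 (Fads1). Windows are on the plus strand at chr4:118427843-118428092 (Elovl1), chr9:77917115-77917364 (Elovl5), chr3:129532136-129532385 (Elovl6) and chr13:108214154-108214403 (Elovl7), all upstream of the first exon. Capitals mark any match, on either strand, to TCACNCCAC (a sterol regulatory element), CACGTG (an E-box), CCAAT (the core of the NF-Y site) or CTTTGA (the core bound by Tcf/Lef factors).
Elovl1: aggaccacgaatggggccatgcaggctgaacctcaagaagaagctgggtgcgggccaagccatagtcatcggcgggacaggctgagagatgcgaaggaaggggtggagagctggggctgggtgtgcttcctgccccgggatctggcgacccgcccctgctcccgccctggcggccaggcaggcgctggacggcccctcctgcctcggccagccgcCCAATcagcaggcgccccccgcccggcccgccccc
Elovl5: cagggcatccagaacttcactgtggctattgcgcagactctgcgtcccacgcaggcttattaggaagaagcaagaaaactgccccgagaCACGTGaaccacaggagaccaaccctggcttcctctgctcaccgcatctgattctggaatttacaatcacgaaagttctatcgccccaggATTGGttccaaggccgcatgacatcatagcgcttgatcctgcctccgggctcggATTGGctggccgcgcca
Elovl6: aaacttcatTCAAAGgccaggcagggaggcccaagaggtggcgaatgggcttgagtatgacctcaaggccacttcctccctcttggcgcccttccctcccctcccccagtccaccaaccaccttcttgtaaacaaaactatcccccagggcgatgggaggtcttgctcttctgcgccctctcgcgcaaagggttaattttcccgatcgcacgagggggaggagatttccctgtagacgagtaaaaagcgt
Elovl7: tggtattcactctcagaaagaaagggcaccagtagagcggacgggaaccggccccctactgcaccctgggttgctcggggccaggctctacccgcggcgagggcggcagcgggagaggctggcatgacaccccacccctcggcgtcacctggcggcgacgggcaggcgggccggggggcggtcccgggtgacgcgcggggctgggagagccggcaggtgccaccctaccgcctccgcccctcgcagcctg

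The Elovl1 window held 1 CCAAT, beginning 35 bases before the start. That of Elovl5 held a CACGTG 161 bases and CCAAT on the minus strand 71 and 17 bases before it. In the Elovl6 window, 1 CTTTGA lay on the minus strand 241 bases before the start, and the Elovl7 window held none of the 4 motifs. Of the other windows, that of Fasn held 3 CCAAT and those of Acly and Acaca none of the motifs. Elovl1 has a further RefSeq start 1608 bases downstream, whose window held none either. Over 32851 windows of the same length in the table, 33.85% held CCAAT, 13.83% CTTTGA, 6.02% CACGTG and 1.05% TCACNCCAC. These matches describe letters and not bound sites.

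**Figure D1:**
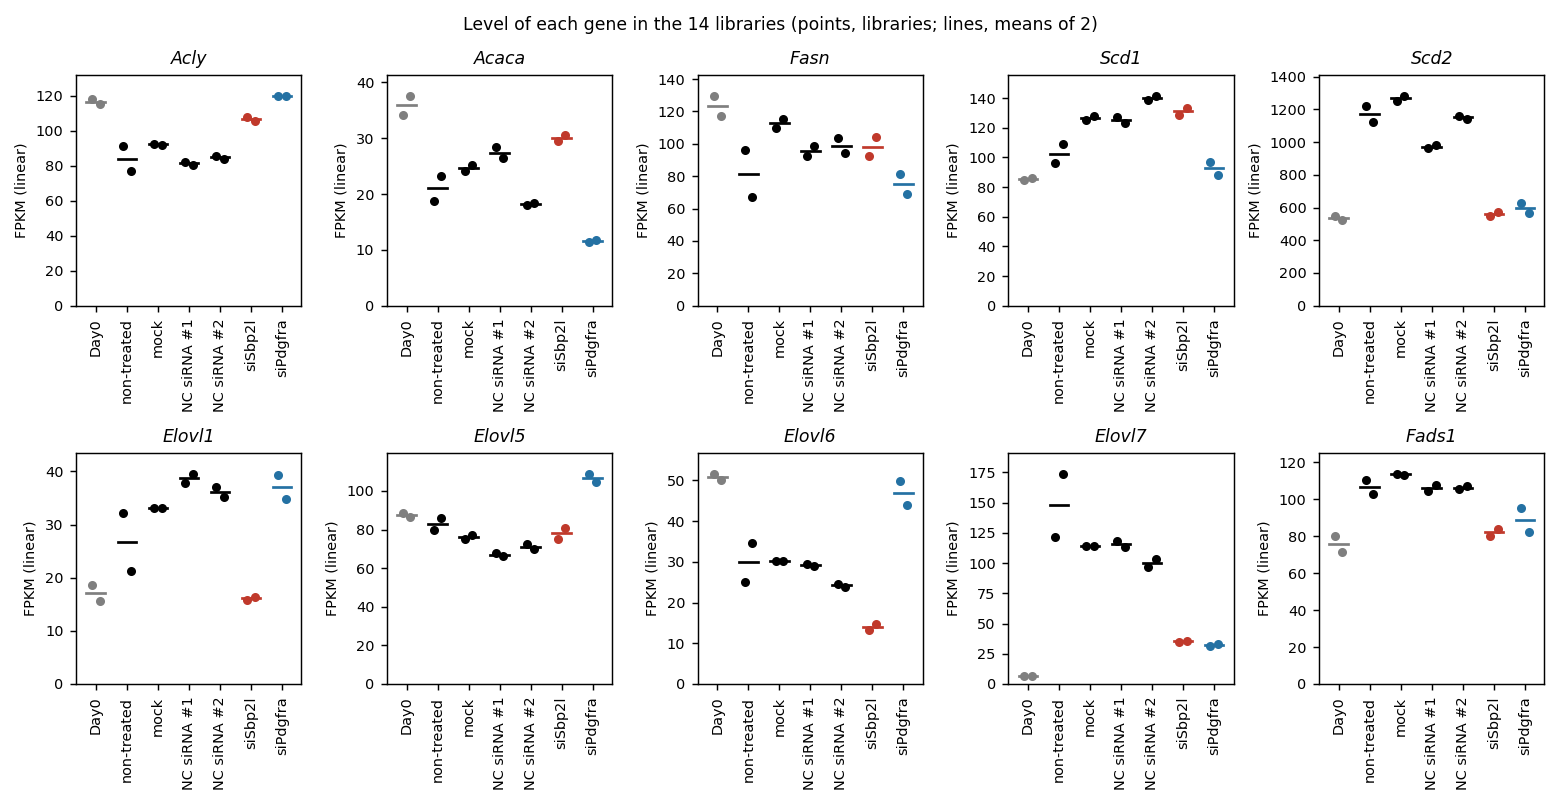
FPKM (vertical axis, linear, from 0) of each of the 10 genes in the 7 groups (horizontal axis). Points are the 2 libraries of a group and lines their means; grey marks Day0, black the 4 Day3 control groups, red siSbp2l and blue siPdgfra. Elovl7 lies near 6.5 FPKM at Day0, between 97.1 and 173.9 in the controls and between 31.5 and 35.5 in both knockdowns.

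Differentiation was examined first, by setting Day3 cells without siRNA against Day0. Of the 10 genes Elovl7 changed the most, followed by Scd2. Elovl7, which lengthens saturated long chain fatty acids, was at 6.49 and 6.44 FPKM at Day0, at 121.8 and 173.9 in non-treated and at 114.3 and 114.2 in mock cells. No Day3 library came near the Day0 values, and the log2 fold change was 4.29 ± 0.13 (SE, n = 2 per group, adjusted p = 5.2e-10) in non-treated and 3.95 ± 0.13 (adjusted p = 8.4e-10) in mock. Elovl6, which takes palmitate to stearate, went the other way. It was at 51.6 and 50.1 FPKM at Day0, at 25.0 and 34.7 in non-treated and at 30.2 and 30.1 in mock cells, and fell by 0.77 on the log2 scale in non-treated (adjusted p = 0.00033) and by 0.73 in mock (adjusted p = 0.00046).

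Elovl1, the elongase of saturated very long chain fatty acids that go into sphingolipids, was at 18.7 and 15.6 FPKM at Day0 and at 33.1 in both mock libraries. The log2 fold change in mock was 0.92 ± 0.16 (adjusted p = 0.00034). The non-treated libraries of Elovl1 spread widely, at 32.1 and 21.3 FPKM, and gave 0.59 ± 0.16 (adjusted p = 0.0063). Elovl5, an elongase of polyunsaturated fatty acids, was at 88.5 and 86.5 FPKM at Day0 and at 74.9 to 85.8 in these Day3 groups. Its log2 fold change was -0.081 in non-treated (95% CI -0.26 to 0.10) and -0.20 in mock (95% CI -0.38 to -0.017, adjusted p = 0.052).

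Among the desaturases, Scd2 had the highest level of the 10 genes in every library. Scd1 and Scd2 are stearoyl-CoA desaturases that turn saturated into monounsaturated fatty acids. Scd2 was at 551.1 and 521.4 FPKM at Day0, at 1219 and 1123 in non-treated and at 1250 and 1285 in mock cells, which gave log2 fold changes of 1.13 ± 0.099 (adjusted p = 1.5e-06) and 1.24 ± 0.099 (adjusted p = 6.4e-07). Scd1 rose less, from 84.6 and 86.1 FPKM to 95.9 and 109.2 in non-treated (log2 fold change 0.26, limma adjusted p = 0.027, but 0.27 with only the libraries compared, 0.11 and 0.079 without Day0 replicate 1 or 2, and 0.065, with a log2 fold change of 0.17, without non-treated replicate 2) and to 124.9 and 127.8 in mock (0.56, adjusted p = 0.00023). The Scd2 level was 6.05 to 6.51 times that of Scd1 at Day0 and 7.57 to 12.7 times it in the 8 control libraries of Day3. Scd1 and Scd2 are close paralogs on chromosome 19, at 44394450 to 44407709 (minus strand) and 44293676 to 44306862 (plus strand) of mm10, and how the authors' counting divided reads shared by paralogs is not given in the sources used here. Fads1, a desaturase of polyunsaturated fatty acids, was at 80.1 and 71.4 FPKM at Day0 and rose to 110.1 and 102.6 in non-treated (log2 fold change 0.49 ± 0.098, adjusted p = 0.0010) and to 113.7 and 113.0 in mock (0.58 ± 0.098, adjusted p = 0.00029).

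The synthesis genes did not rise with these enzymes. Acaca was at 34.2 and 37.6 FPKM at Day0, at 18.8 and 23.3 in non-treated and at 24.2 and 25.3 in mock cells, with log2 fold changes of -0.75 ± 0.10 (adjusted p = 6.0e-05) and -0.52 ± 0.10 (adjusted p = 0.00092). Acly fell from 118.1 and 115.3 FPKM to 91.3 and 77.0 in non-treated (adjusted p = 0.00076) and to 92.5 and 92.1 in mock (adjusted p = 0.0071). Fasn was at 129.8 and 117.4 FPKM at Day0. It fell by 0.62 on the log2 scale in non-treated, at 96.1 and 67.0 FPKM (adjusted p = 0.0043), while mock, at 109.9 and 115.4, gave -0.13 (95% CI -0.47 to 0.21). When just the Day0 and non-treated libraries were fitted, limma gave an adjusted p of 0.079 for Acly, 0.078 for Fasn, 0.10 for Elovl1 and 0.066 for Fads1, and that of Elovl1 was 0.061 without Day0 replicate 2.

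In all, 2 of the 10 genes (Elovl7 and Scd2) were called higher and 0 lower at Day3, in non-treated and in mock. Of all genes tested, 11.4% were called higher and 15.2% lower in non-treated, and 12.2% and 14% in mock. At an adjusted p under 0.05 and any fold, 5 of the 10 rose and 4 fell in non-treated, where 28.4% of all genes rose and 38.6% fell. In mock, 5 rose and 3 fell, beside 29.7% and 36.6% of all genes. Calls of 2 in 10 are near these background shares and say nothing of the 10 genes as a set. The median log2 fold change of the 10 genes was 0.089 in non-treated and 0.21 in mock, and that of all genes tested was -0.12 and -0.070.

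**Figure D2:**
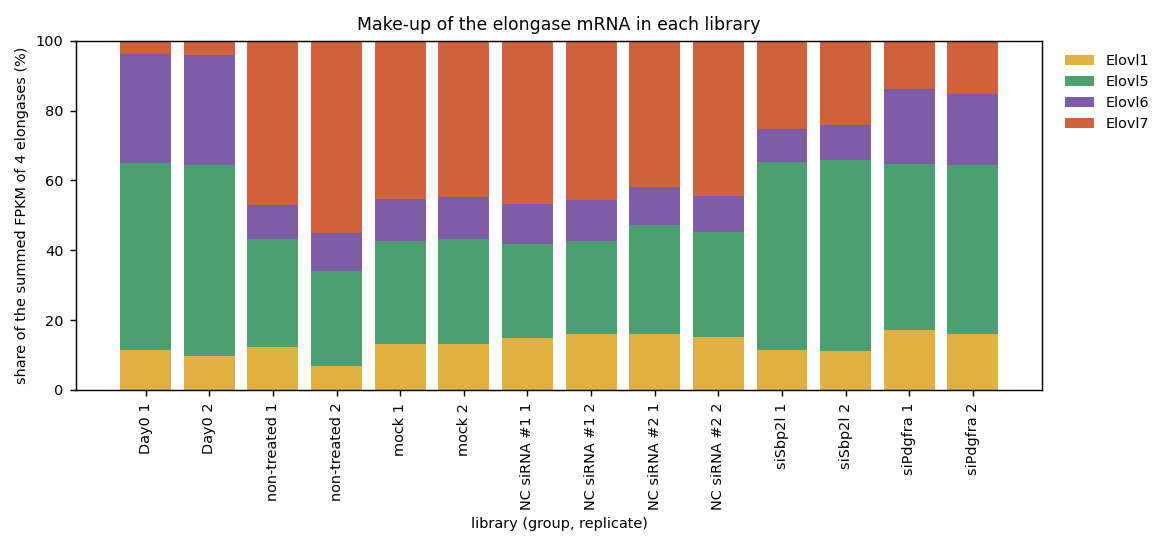
Share of each of 4 elongases in their summed FPKM (vertical axis, percent) in each of the 14 libraries (horizontal axis, group and replicate). Elovl7 makes up 3.93% to 4.06% at Day0, 42.0% to 55.1% in the Day3 controls, 24.0% to 25.2% in siSbp2l and 13.7% to 15.2% in siPdgfra.

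These opposite movements changed the make-up of the elongase mRNA. At Day0 the summed level of the 4 elongases was 158.5 to 165.2 FPKM, of which Elovl5 made up 53.6% to 54.5% and Elovl6 31.2% to 31.6%. In the 8 Day3 control libraries the sum was 231.0 to 315.7 FPKM, with Elovl7 at 42.0% to 55.1% and Elovl6 at 9.68% to 11.95%. The level of Elovl7 relative to Elovl6 went from 0.126 to 0.129 at Day0 to between 3.79 and 5.02 in those controls.

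The second question was what knockdown of Sbp2l changes at Day3, with the mean of the 4 control groups as the reference. In siSbp2l, 3 of the 4 elongases and Scd2 fell, each by at least 1.95-fold. Elovl7 was at 35.0 and 35.5 FPKM, below every control library (97.1 to 173.9). Its log2 fold change was -1.72 ± 0.11 (adjusted p = 1.6e-06). Elovl1 was at 15.9 and 16.3 FPKM, where the controls lay between 21.3 and 39.5, and fell by 1.00 on the log2 scale (SE 0.12, adjusted p = 0.00011). Elovl6 was at 13.2 and 14.7 FPKM, where the controls lay between 23.9 and 34.7, with a log2 fold change of -0.96 ± 0.11 (adjusted p = 6.1e-05). Its fold, 1.95, was just short of the fold needed for a call. Elovl5 was at 75.0 and 81.0 FPKM, within the controls (66.1 to 85.8), and its log2 fold change was 0.075 (95% CI -0.083 to 0.23).

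Scd2 was at 551.3 and 575.4 FPKM in siSbp2l, below every control library (965.0 to 1285), with a log2 fold change of -1.01 ± 0.083 (adjusted p = 6.2e-06). Scd1 was at 128.7 and 133.6 FPKM, within the controls (95.9 to 141.7), and its difference had a 95% CI of -0.080 to 0.27 on the log2 scale. The Scd2 level was 4.28 to 4.31 times that of Scd1 in siSbp2l, the lowest ratio of the 7 groups. Fads1 fell by 0.39 on the log2 scale, at 80.1 and 84.1 FPKM beside 102.6 to 113.7 in the controls (adjusted p = 0.0020).

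The genes of synthesis did not fall in siSbp2l. Acaca was at 29.5 and 30.5 FPKM and Acly at 108.0 and 105.5, both above all control libraries, with log2 fold changes of 0.40 ± 0.085 (adjusted p = 0.0030) and 0.32 ± 0.077 (adjusted p = 0.0063). Neither rise passed with median-ratio scaling (adjusted p = 0.081 and 0.098), and that of Acly did not with upper-quartile scaling (adjusted p = 0.053) or without siSbp2l replicate 1 (adjusted p = 0.073). Over the whole table the median shift in siSbp2l was 0.15 on the log2 scale as deposited, and 0.0016 once scaled in this way. Fasn was at 92.7 and 104.0 FPKM, within the controls (67.0 to 115.4), with a log2 fold change of 0.032 (95% CI -0.25 to 0.31).

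Thus 3 of the 10 genes (Elovl7, Scd2 and Elovl1) were called lower in siSbp2l and 0 higher. Over all genes tested, 4.08% were called lower and 3.12% higher. At an adjusted p under 0.05 and any fold, 5 fell and 2 rose, where 17.9% of all genes fell and 35.5% rose. Both siSbp2l libraries lay below all 8 control libraries for 5 genes (Scd2, Elovl1, Elovl6, Elovl7, Fads1) and above them for 2 (Acly, Acaca), and this was so for 13.5% and 30.8% of all genes. Calls of Scd2 and Elovl1 rested on folds of 2.01 and 2.00, at the edge of the threshold, and without siSbp2l replicate 1 the count was 1.

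Against each control group in turn, 1 of the 10 genes, Elovl7, was called lower in all 4 contrasts and 0 higher, where 2.03% of all genes were called lower and 1.19% higher in all 4. The log2 fold change of Elovl7 was -2.02 with non-treated cells as the reference, -1.67 with mock, -1.69 for NC siRNA #1 and -1.48 for NC siRNA #2. Scd2 gave -1.05, -1.17, -0.79 and -1.03 in the same order, and Elovl6 gave -1.03, -1.06, -1.02 and -0.76. For Elovl1 the values were -0.67, -0.998, -1.22 and -1.12, so that each of these 3 genes missed the fold of 2 against 1 or 2 of the control groups. Every one of these differences had an adjusted p under 0.05. Acaca differed less steadily, at 0.69 against NC siRNA #2 (adjusted p = 0.00065) and 0.13 against NC siRNA #1 (adjusted p = 0.35).

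The third comparison was siPdgfra with the same 4 control groups, which it shares with siSbp2l. Elovl7 was at 31.5 and 33.0 FPKM, again below all controls, with a log2 fold change of -1.84 ± 0.11 (adjusted p = 1.1e-06). Elovl6 was at 49.8 and 44.0 FPKM, above every control library and near its Day0 level, and rose by 0.71 ± 0.11 (adjusted p = 0.00043). Elovl5 was at 108.8 and 104.7 FPKM, also above every control, and rose by 0.52 ± 0.071 (adjusted p = 0.00017). Elovl1 was at 39.4 and 34.8 FPKM, within the controls, with a difference of 0.15 (95% CI -0.13 to 0.43).

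Scd2 was at 627.7 and 565.3 FPKM in siPdgfra, below all controls. Its log2 fold change was -0.93 ± 0.083 (adjusted p = 1.0e-05), a fold of 1.91, so that it was not called. It was called with median-ratio and upper-quartile scaling and without siPdgfra replicate 1, each of which gave 2 genes in place of 1. Scd1 fell by 0.40 on the log2 scale, at 97.1 and 88.2 FPKM (adjusted p = 0.0016), and Fads1 by 0.28, at 95.3 and 82.2 FPKM (adjusted p = 0.011). Without siPdgfra replicate 2 the value of Fads1 was -0.18 (limma adjusted p = 0.16). Acaca was at 11.5 and 11.8 FPKM, the lowest of all 7 groups, where the controls lay between 18.1 and 28.3. It fell by 0.90 on the log2 scale (SE 0.085, adjusted p = 1.5e-05). Acly rose by 0.49, at 120.2 and 120.1 FPKM (adjusted p = 0.00049). Fasn, at 81.3 and 69.2 FPKM, gave -0.35 ± 0.13 (adjusted p = 0.037), which was lost in 12 of the alternatives tried.

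In siPdgfra, 1 of the 10 genes (Elovl7) was called lower and 0 higher, beside 4.03% and 3.97% of all genes. At any fold, 6 fell and 3 rose at an adjusted p under 0.05, where 23% of all genes fell and 32.4% rose. Both libraries lay below all 8 controls for 4 genes and above them for 3, against 17.5% and 26.5% of all genes. Against each of the 4 control groups, 1 gene, Elovl7, was called lower in all and 0 higher, where 1.84% of all genes were called lower and 1.77% higher in all.

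**Figure D3:**
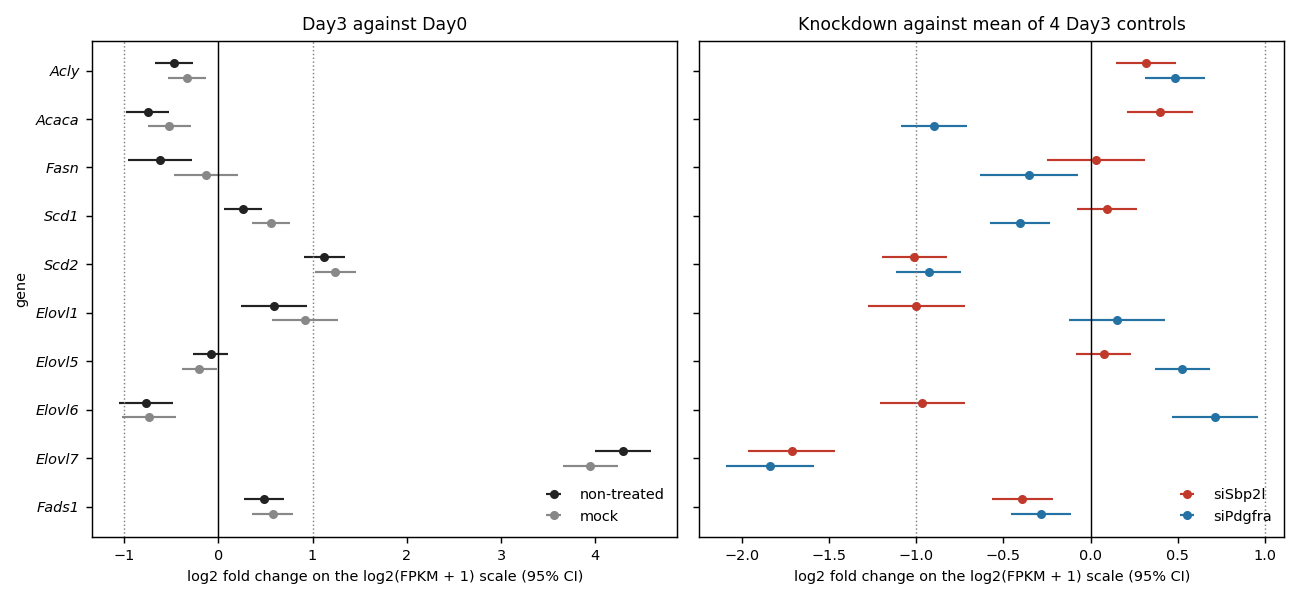
Log2 fold change (horizontal axis, log2(FPKM + 1) scale) of the 10 genes with 95% confidence intervals from limma. Left, non-treated and mock Day3 cells against Day0; right, siSbp2l and siPdgfra against the mean of the 4 Day3 control groups; dotted lines mark a fold of 2. Elovl6 is at -0.96 in siSbp2l and 0.71 in siPdgfra, and Acaca at 0.40 and -0.90.

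Whether the knockdowns differed was tested by setting them against each other. Elovl6 was lower in siSbp2l than in siPdgfra by 1.68 on the log2 scale, a fold of 3.20 (SE 0.14, adjusted p = 7.8e-06). Elovl1 was lower by 1.15 (SE 0.16, adjusted p = 0.00019). Acaca was higher, by 1.29 ± 0.11 (adjusted p = 6.7e-06). Elovl5 was lower by 0.45 (adjusted p = 0.0020) and Scd1 higher by 0.50 (adjusted p = 0.0019), both under a fold of 2. For Elovl7 the difference was 0.12 (95% CI -0.19 to 0.44), for Scd2 -0.081 (95% CI -0.31 to 0.15), and for Fads1 -0.11 (95% CI -0.33 to 0.11). These intervals leave room for differences of up to 1.36-fold in Elovl7. So 1 of the 10 genes was called higher and 2 lower in siSbp2l than in siPdgfra, beside 6.94% and 6.73% of all genes. At any fold, 2 were higher and 3 lower at an adjusted p under 0.05, beside 28.5% and 23.4% of all genes.

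The controls among themselves set the background. Between NC siRNA #1 and NC siRNA #2, limma called 0 of the 10 genes higher and 0 lower, where 2.36% and 1.63% of all genes were called. At any fold, 1 gene passed an adjusted p of 0.05. This was Acaca, at 28.3 and 26.4 FPKM with NC siRNA #1 and 18.1 and 18.4 with NC siRNA #2 (log2 difference 0.56 ± 0.11, adjusted p = 0.0042, and 0.053 without NC siRNA #1 replicate 1). The shares of all genes at any fold were 10.1% higher and 10.8% lower. Without adjustment 2 of the 10 genes passed 0.05 in limma, the other being Scd2 (log2 difference -0.24, adjusted p = 0.14). With only the libraries of these 2 groups fitted, Scd2, Elovl6 and Elovl7 also passed. Their log2 differences were -0.24, 0.26 and 0.20 (limma adjusted p = 0.011, 0.0091 and 0.027).

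Set against Day0, the knockdown cells had neither the Day0 nor the Day3 pattern of all 10 genes. In siSbp2l, Elovl7 was still called higher than at Day0 (log2 fold change 2.28 ± 0.13, adjusted p = 7.2e-08) and Elovl6 was called lower (-1.79 ± 0.13, adjusted p = 4.3e-07). Scd2 and Elovl1 differed from Day0 by 0.071 (adjusted p = 0.54) and -0.078 (adjusted p = 0.68). The background was 12.1% of all genes called higher and 10.7% lower. In siPdgfra, Elovl7 (2.15 ± 0.13, adjusted p = 8.9e-08) and Elovl1 (1.07 ± 0.16, adjusted p = 0.00010) were called higher and Acaca lower (-1.55 ± 0.10, adjusted p = 1.4e-07). There 13.9% of all genes were called higher and 13.9% lower. Elovl6 in siPdgfra differed from Day0 by -0.12 (adjusted p = 0.45).

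The rest of the pathway was followed in a list of 31 further genes, of which 30 were found and 22 tested in the Day3 fit, and in 14 regulators, of which 12 were tested. At Day3 the acyl-CoA synthetases, which activate free fatty acids, parted ways. Acsl3 rose from 39.2 and 43.3 FPKM at Day0 to 189.8 and 226.9 in non-treated cells (log2 fold change 2.31), and Acsl1 from 7.56 and 8.11 to 26.0 and 26.6 (1.63). Acsl5 fell from 27.4 and 27.1 FPKM to 5.00 and 4.53 (-2.29) and Acsl4 from 34.5 and 35.9 to 7.50 and 13.7 (-1.69). Elovl2, an elongase of polyunsaturated fatty acids, was at 4.54 and 4.03 FPKM at Day0 and at 0.507 and 0.586 in non-treated cells. It reached the filter only through Day0, the group in which it is high, so that it had to differ, and it is left out of the counts. Lpin1, a phosphatidate phosphatase, rose from 8.92 and 8.68 FPKM to 22.7 and 22.4 (1.26). In mock cells Acsl3, Acsl1, Acsl5, Acsl4 and Lpin1 gave 2.13, 1.56, -1.86, -1.82 and 1.47. Each of these 5 genes was called by limma in both contrasts, with adjusted p-values of at most 1.5e-05. Of 22 pathway genes 3 were called higher and 2 lower in non-treated, and 2 and 2 in mock. Of 12 regulators 1 was called higher in non-treated and 2 in mock, and 0 lower. Of all genes, 11.4% were called higher and 15.2% lower in non-treated, and 12.2% and 14% in mock.

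In siSbp2l, 2 genes of the pathway list were called lower and 0 higher, where 4.08% and 3.12% of all genes were. Cyb5b, a cytochrome b5 of the outer mitochondrial membrane, was at 16.7 and 16.1 FPKM beside 36.6 to 47.9 in the controls (log2 fold change -1.32 ± 0.074, adjusted p = 5.7e-07). Acsl1 was at 13.5 in both libraries beside 24.2 to 32.9 (-1.003 ± 0.071, adjusted p = 2.3e-06). Of the regulators, 1 was called lower and 0 higher. It was Insig1, which retains the SREBP activators of lipid genes in the endoplasmic reticulum and is itself a target of SREBP, at 44.95 and 41.04 FPKM beside 103.3 to 130.4 in the controls (-1.38 ± 0.077, adjusted p = 5.4e-07). In siPdgfra, 2 genes of the pathway list were called higher and 0 lower, where 3.97% and 4.03% of all genes were. Acsl5 was at 21.5 and 23.8 FPKM beside 4.21 to 7.10 (1.89 ± 0.080, adjusted p = 1.2e-07). Mid1ip1, which promotes the assembly of acetyl-CoA carboxylase, was at 57.2 and 57.7 FPKM beside 14.1 to 28.5 (1.17 ± 0.18, adjusted p = 0.00037). Among 11 regulators 0 were called. The pseudokinase gene Trib3 is left out of that count, because it reached the filter only through siPdgfra, where it was at 3.10 and 2.49 FPKM beside 0.372 to 1.21 in the controls. Cyb5b, Acsl1 and Insig1 also lay below every control library in siPdgfra, without being called. Their siPdgfra levels were 24.2 and 23.7, 19.8 and 19.1, and 55.5 and 61.3 FPKM in that order.

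Directly between the knockdowns, 2 genes of the pathway list were called lower in siSbp2l than in siPdgfra and 0 higher, and of 11 regulators 0 in either direction, again without Trib3. Of all genes 6.73% were called lower and 6.94% higher. The genes were Mid1ip1 (log2 difference -1.06, adjusted p = 0.0027) and Hsd17b12, which encodes the ketoacyl reductase of the elongation cycle (-1.06 ± 0.097, adjusted p = 1.2e-05). Hsd17b12 was at 82.2 and 80.2 FPKM in siSbp2l and at 168.4 and 172.8 in siPdgfra, and the control groups spread from 47.1 to 169.0. Between the non-targeting siRNAs, 0 genes of either list were called by limma, where 2.36% of all genes were called higher and 1.63% lower. With NC siRNA #1, 3 of the pathway list were higher and 4 lower at an adjusted p under 0.05 and any fold. Of the regulators 2 were higher and 1 lower, and of all genes 10.1% and 10.8%. Against Day0, 4 of 22 pathway genes were called lower in siSbp2l and 0 higher, beside 10.7% and 12.1% of all genes. They were Cyb5b, Acsl5, Ptpla (the dehydratase also named Hacd1, -1.12, adjusted p = 1.0e-06) and Acsl4. In siPdgfra 4 of 22 were called higher and 1 lower, and 1 of 11 regulators higher, beside 13.9% and 13.9% of all genes. Among them were Acsl4 (-1.54), Acsl3 (1.49), Acsl1 (1.21) and Lpin1 (1.18), with limma adjusted p-values of at most 3.1e-05. Elovl2, and in siPdgfra Trib3, are left out of these counts too.

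**Figure D4:**
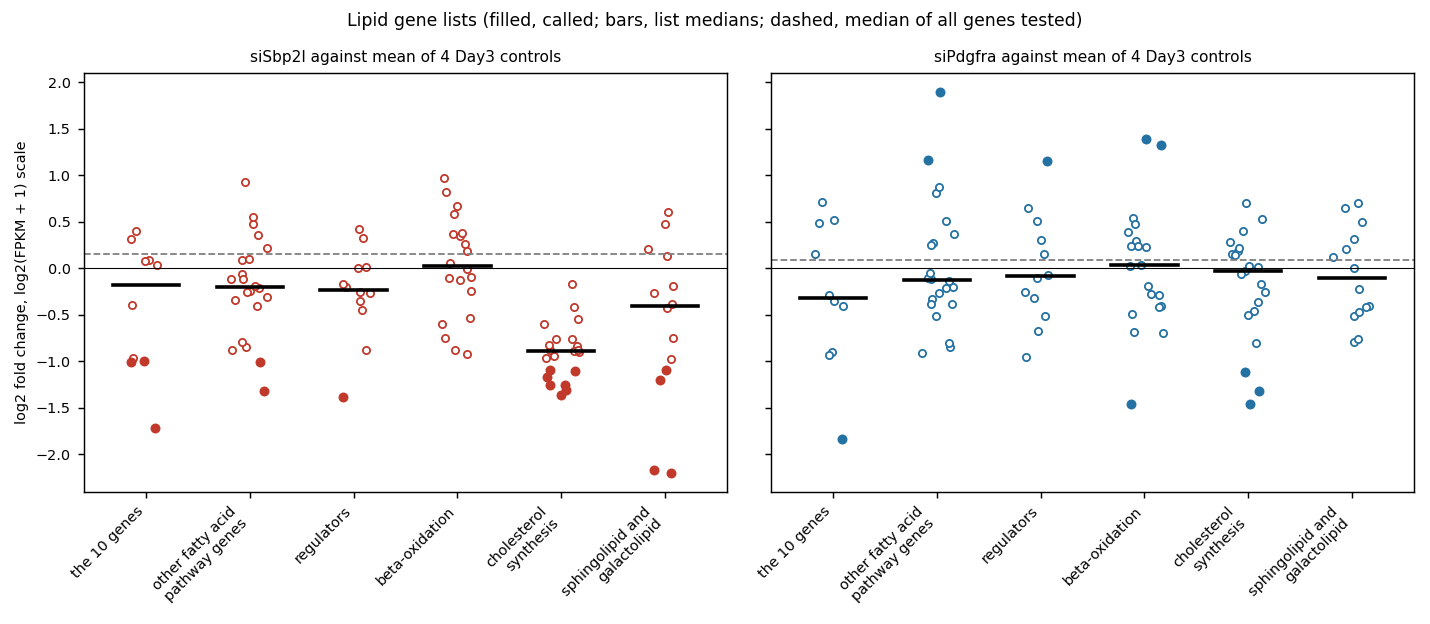
Log2 fold change (vertical axis, log2(FPKM + 1) scale) of single genes in 6 lipid gene lists (horizontal axis), in siSbp2l (left) and siPdgfra (right) against the mean of the 4 Day3 controls. Points are genes, filled where called, bars are list medians, and the dashed line is the median of all genes tested; the cholesterol list has a median of -0.88 in siSbp2l and -0.031 in siPdgfra.

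Neighbouring lipid pathways moved to different degrees. In siSbp2l the median log2 fold change was -0.18 for the 10 genes, -0.20 for the other pathway genes, -0.23 for the regulators, 0.027 for 20 genes of beta-oxidation, -0.41 for 14 genes of myelin sphingolipid and galactolipid synthesis and -0.88 for 21 genes of cholesterol synthesis, beside 0.15 for all genes tested. Of the cholesterol genes, 20 fell and 0 rose at an adjusted p under 0.05, beside 17.9% and 35.5% of all genes. Of the same genes 7 were called lower and 0 higher, as were 4 of the sphingolipid and galactolipid genes and 0 of the beta-oxidation genes, beside 4.08% and 3.12% of all genes. In siPdgfra the medians were -0.32, -0.13, -0.087, 0.032, -0.11 and -0.031 in the same order, beside 0.089 for all genes tested. There 3 of the cholesterol genes were called lower and 0 higher, 0 of the sphingolipid and galactolipid genes were called, and of the beta-oxidation genes 2 were called higher and 1 lower, beside 4.03% lower and 3.97% higher among all genes. In each of these lists at most 1 gene reached the filter only through the side of the contrast in which it was higher, and 0 of these genes outside the regulators were called.

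Some markers of cell state differed between the groups. The summed level of 10 myelin protein genes was 741.7 to 821.9 FPKM at Day0, 7028 to 10370 in the Day3 controls, 2777 to 2974 in siSbp2l and 5340 to 6108 in siPdgfra. The sum of 8 OPC markers includes Pdgfra, a knockdown target. Without it, the other 7 summed to 1740 to 2086 FPKM at Day0, 904.1 to 1341 in the Day3 controls, 1012 to 1050 in siSbp2l and 1078 to 1214 in siPdgfra. The sums of both knockdowns lay within the controls, but not every single marker did. Pdgfra, which siSbp2l does not target, was at 149.9 and 144.4 FPKM in siSbp2l, above the controls (32.4 to 72.1). Cspg4 was at 0.54 and 0.45 FPKM in siPdgfra, beside 0.96 to 2.81 in the controls. Of the 7, Gpr17 was higher at Day3 than at Day0 (57.7 and 47.3 FPKM), at 172.7 to 229.0 FPKM in the controls, 87.8 and 99.5 in siSbp2l and 177.7 and 155.8 in siPdgfra. The mean of Sox10 was also higher at Day3. Sox10 was at 168.3 and 133.4 FPKM at Day0, 167.3 to 318.4 in the controls, 240.2 and 243.9 in siSbp2l and 249.7 and 202.0 in siPdgfra. The sum of 9 astrocyte markers was 82.7 to 87.8 FPKM at Day0, 221.0 to 380.0 in the Day3 controls, 225.5 to 236.0 in siSbp2l, within the controls, and 179.0 to 181.5 in siPdgfra, below them, with 7 of 9 at 1 FPKM or more at Day3 and Gja1 and Aqp4 under 1 FPKM throughout. S100b had the highest level of the 9 at Day3, at 116.0 to 204.6 FPKM in the controls. In siSbp2l single markers left the control range both ways. S100b was at 100.4 and 97.0 FPKM and Aldh1l1 at 2.45 and 2.36 (controls 3.93 to 7.13), both below. Fgfr3 was above, at 3.92 and 3.50 (controls 1.31 to 2.71). Of 7 tested, 2 rose and 4 fell in siSbp2l (limma adjusted p under 0.05), beside 35.5% and 17.9% of all genes. Of 7 neuron markers, 1 to 3 reached 1 FPKM in a group. Their sum was 27.6 to 29.5 FPKM at Day0, 48.2 to 276.5 in the Day3 controls, 200.4 to 201.6 in siSbp2l and 236.4 to 240.4 in siPdgfra, most of it Tubb3. The sums were at most 9.46 FPKM for 8 microglia markers, with C1qb at 0 in every library, and at most 0.395 FPKM for 8 endothelial and mural markers, with Cldn5 and Cdh5 at 0. Most of the microglia sum was P2ry12, at 0.69 and 0.51 FPKM at Day0, 9.46 and 8.78 in NC siRNA #1 and 7.57 and 6.57 in siPdgfra. The part of these markers in the levels of the 10 genes was not tested. In bulk samples such as these, fewer cells of a type and less RNA per cell cannot be told apart.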

How the data were processed

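Messenger RNA was measured in 14 libraries (TruSeq Stranded mRNA). The authors processed the reads with OmicSoft ArrayStudio on the mm10 refGene model and deposited FPKM values, 1 column per library. The aligner, the software version and the use of strand in counting are not given in the sources used here. The non-treated libraries are named only by day in that table, and 1 column name of siSbp2l is misspelled. A further deposited table of the authors holds their DESeq2 fold changes and p-values for siSbp2l, which were not used. From it came coordinates, exon length and symbols.

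FPKM were used without further scaling and tested with limma 3.58.1 (R 4.3.3) on log2(FPKM + 1), with trend and robust empirical Bayes moderation, among genes at 1 FPKM or more in at least 2 fitted libraries. The scale understates changes of low genes. Depth was estimated from low values, from 0.2 FPKM to 50 fragments. The 12 Day3 libraries were fitted together, and all 14 for contrasts with Day0, with 1 mean per group. The code was tested on simulated data. Alternatives were pseudocounts, filters, scalings, smaller fits, another moderation, a replicate block, fold thresholds and leaving out libraries. Tests were two-sided. The 10 genes, the lists and the tests were chosen with earlier results of these data known. Genes named beyond the 10 were those of the pathway and regulator lists called in a contrast, at most the 6 with the largest fold. A list gene that reached the filter only through the group in which it is high was left out of the counts of called pathway and regulator genes. For the OPC markers, Gpr17, Sox10 and Cspg4 were named and a sum without Pdgfra was added after the data were seen. The astrocyte markers S100b, Aldh1l1 and Fgfr3 were likewise named after the data were seen. Hsd17b12 and Acsl3 in the closing section were also picked after their values were seen. Cyb5a and Map2 were not found by symbol.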

Additional observations from a re-analysis of the deposited data

Results flagged for a closer look

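Of the 10 genes, 1 was called higher and 2 lower in the direct limma test of siSbp2l against siPdgfra. Of all genes tested, 6.94% were called higher and 6.73% lower. Elovl5 and Scd1 also passed an adjusted p of 0.05 there, under a fold of 2. Elovl6 differed by -1.68 on the log2 scale (SE 0.14, limma adjusted p = 7.8e-06), with -0.96 in siSbp2l and 0.71 in siPdgfra against the same controls. Acaca differed by 1.29 (SE 0.11, adjusted p = 6.7e-06), with 0.40 and -0.90. Elovl1 differed by -1.15 (SE 0.16, adjusted p = 0.00019), where Elovl1 fell by 1.00 in siSbp2l and gave 0.15 in siPdgfra. In each case both libraries of one knockdown lay on the same side of both libraries of the other. The genes were picked by the test on these same values, so this adds no support to it.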

How the results depend on the processing

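The direction of a change that passed an adjusted p of 0.05 was the same under every alternative that was run, over the 10 genes and 8 contrasts. Of the values under alternatives, 1706 kept their side of that threshold, 29 lost it and 45 gained it. The count of called genes depended mainly on the fold required. With a fold of 1.5 it went from 2 to 6 in non-treated against Day0, from 2 to 4 in mock against Day0, from 1 to 4 in siPdgfra against the control mean, and from 1 to 4 against each control in both knockdowns. The share of all genes at that fold was not computed, so these counts are not read as a trait of the 10 genes. With no fold required it was 9, 8, 7 (siSbp2l, from 3) and 9 (siPdgfra) in the 4 comparisons with Day0 and the control mean, 5 and 6 against each control in siSbp2l and siPdgfra, 5 between the knockdowns (from 3), 1 between the non-targeting siRNAs (from 0) and 5 in siPdgfra against Day0 (from 3). Many of all genes also passed with no fold required. In non-treated 28.4% rose and 38.6% fell, and in mock 29.7% and 36.6%. In siSbp2l 35.5% rose and 17.9% fell, and in siPdgfra 32.4% and 23%. Between the knockdowns 28.5% were higher and 23.4% lower, and between the non-targeting siRNAs 10.1% and 10.8%. In siPdgfra against Day0, 3997 of 11874 genes rose and 4050 fell. No such share was computed against each control. In siPdgfra median-ratio and upper-quartile scaling each gave 2 in place of 1. Leaving out 1 library at a time gave 1 to 4 for siSbp2l and 1 to 2 for siPdgfra against the control mean, 2 to 3 for mock against Day0, 2 to 3 for siPdgfra against Day0, 2 in both other comparisons with Day0, 1 for each knockdown against each control, 3 between the knockdowns and 0 between the non-targeting siRNAs. A group left with 1 library was then assumed to vary like the others. The labels give groups the same replicate numbers without saying that these pair samples, and the correlation of same-numbered deviations over genes ran from -0.38 to 0.47, above 0.1 in 4 of 21 pairs of groups. With a replicate block, the counts of called genes were 2 and 2 for non-treated and mock against Day0, 3 and 1 for siSbp2l and siPdgfra against the control mean, and 3 between the knockdowns, as without it.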

Other observations

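Some genes of the pathway differed between control groups that received an siRNA and those that did not. Hsd17b12 was at 144.2 and 169.0 FPKM in non-treated and 140.9 and 137.7 in mock cells, but at 47.1 and 47.2 with NC siRNA #1 and 72.0 and 72.5 with NC siRNA #2. Acsl3 was at 189.8 and 226.9 FPKM in non-treated and 189.5 and 178.6 in mock cells, and at 98.8 and 92.5 with NC siRNA #1 and 147.7 and 156.1 with NC siRNA #2. Both genes were picked after their values were seen, and these differences were not tested.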
